A study of Mus musculus with 6 samples.

Results

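The array labelled knockout replicate 3 was set against 3 wild-type arrays of mouse retina, gene by gene, to describe which cell types and pathways stood higher or lower on it. These are 4 of the 6 arrays of a study of the Nxnl2-/- mouse retina. All non-control probe sets that name exactly 1 gene entered, with 1 probe set per gene, the one with the highest mean over these 4 arrays, which gave 18193 genes. The difference of a gene is its value on the single array minus the mean of the 3 wild-type arrays, in log2 units. Because 1 side of the comparison is 1 array, no test was possible and every value here is a description of that array. The array was singled out because its values stood apart, so its distance from wild type is how it was chosen and not a finding.

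The labels give the wild-type mice the genotype wt/wt and the other mice the genotype ko/ko, all of strain BALB/c AJ, at post-natal day 40 (40 days). In all 6 samples the tissue is labelled retina, taken without the retinal pigment epithelium, and total RNA was measured as biotinylated cRNA on Affymetrix arrays. The labels do not say whether the replicates of a genotype came from separate animals, so the wild-type spread may be technical. Values are log2 intensities, and the number of arrays limits their precision. In tissue RNA, fewer cells of a type and less RNA per cell cannot be told apart.

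The neural retina turns light into nerve signals. Rods and cones hold opsins in a stacked outer segment, and light there activates transducin and a phosphodiesterase that lowers cyclic GMP and closes a cyclic-nucleotide-gated channel. The olfactory mucosa of the nose does a related task for odours. Its neurons carry odorant receptors on cilia and signal through a G protein, an adenylyl cyclase and another cyclic-nucleotide-gated channel. Around them lie sustentacular cells, Bowman glands, basal stem cells, ciliated airway epithelium and a connective tissue on cartilage and bone. Nxnl2 encodes a thioredoxin-like protein of the retina related to the rod-derived cone viability factor.

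The targeted gene was read first, since it checks the labels. The brighter Nxnl2 probe set read 11.38, 11.45 and 11.42 on the wild-type arrays, 3.78 and 3.73 on knockout replicates 1 and 2, and 9.21 on the array labelled knockout replicate 3. The second Nxnl2 probe set read 8.36, 8.81 and 8.37 in wild type, 4.25 and 4.11 on knockout replicates 1 and 2, and 6.83 on the single array. On both probe sets the single array lay between the wild-type arrays and the other knockout-labelled arrays. For the brighter probe set it was 2.21 log2 units under the wild-type mean (SD 0.04, n = 3), or 4.62-fold lower. Nxnl2 was thus above background on this array, which goes against its label. Directions below are drawn for that array under the name its label gives it.

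The 4 markers that give the array its nasal description were each far above wild type. Omp, the olfactory marker protein of mature olfactory neurons, read 5.47, 5.15 and 5.45 in wild type and 12.61 on the single array. Obp1a, a secreted odorant-binding lipocalin, read 2.88, 2.99 and 3.54 in wild type and 14.12 on the single array. Cyp2g1, an olfactory cytochrome P450, read 3.17, 3.20 and 3.20 against 12.995. Muc5b, a gel-forming mucin of glands and airways, read 4.78, 5.35 and 5.09 against 11.93. All 5 other arrays read under 6 for each of the 4 genes. These markers are also counted in gene lists below, where they repeat what gave the array its description. Obp1a is on the nasal binding protein list and Omp on the olfactory signalling list. Cyp2g1 is on the sustentacular and Bowman gland list and the odorant enzyme list, and Muc5b on the former and the mucin list.

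The label of the tissue was checked in the same way. Gnat1, the alpha subunit of rod transducin, read 14.17, 14.16 and 14.14 in wild type and 4.23 on the single array. Rcvrn, the calcium sensor recoverin, read 13.63, 13.55 and 13.77 against 3.18. RMA values carry no detection calls, so the highest of 15 Bacillus control probe sets on each array, which have no mouse target, served as a background ceiling. It was 4.13 on the single array and 4.18, 4.60 and 4.18 on the wild-type arrays. On an array labelled retina, Rcvrn thus read under the ceiling and Gnat1 just above it. A fold is written as "at least" where the dimmer side lies under the ceiling. It then sets the brighter side against a dimmer side raised to the ceiling. Counts of genes use the differences as measured, so a gene counted as 4-fold can have a smaller bound.

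**Figure D1:**
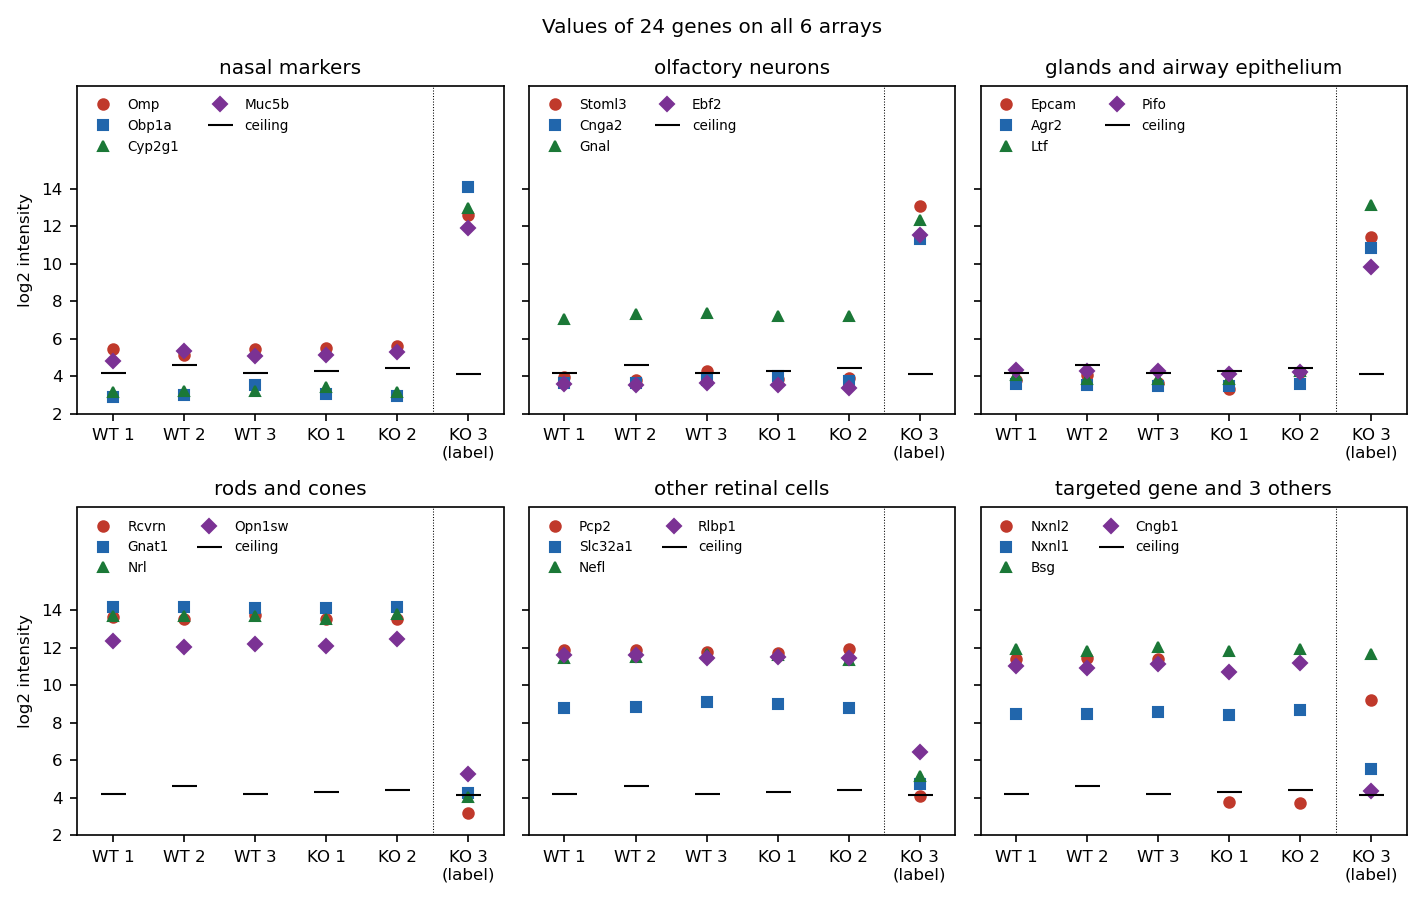
Log2 intensity of 24 genes on the 3 wild-type arrays (WT), knockout replicates 1 and 2 (KO 1, KO 2) and the array labelled knockout replicate 3 (KO 3, label), with black dashes at each array's background ceiling and 1 point per array. Omp, Obp1a, Cyp2g1 and Muc5b lie between 11.93 and 14.12 on the last array only, Gnat1 and Rcvrn lie at 4.23 and 3.18 there only, and Nxnl2 is at background on KO 1 and KO 2 but at 9.21 on the last array.

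Across all genes, 1375 were 4-fold or more higher on the single array, which is 7.56% of the genes compared, and 827 (4.55%) were 4-fold or more lower. At 2-fold the counts were 2907 (16.0%) and 2090 (11.5%), and at 8-fold 666 (3.66%) and 391 (2.15%). The single array lay above all 3 wild-type arrays for 39.6% of genes and below all 3 for 45.1%. These shares are the background against which each gene list is read below. Measured the same way, no wild-type array set against the other wild-type arrays had more than 16 genes (0.0879%) at 4-fold higher or more than 1 (0.0055%) lower. Knockout replicate 1 against wild type had 3 genes (0.0165%) higher and 1 (0.0055%) lower, and knockout replicate 2 had 5 (0.0275%) and 2 (0.011%). The median difference over all genes was -0.04 and the median wild-type SD was 0.099. The single array correlated with the wild-type arrays at 0.848 to 0.852 over non-control probe sets, where the wild-type arrays correlated with each other at 0.994 to 0.996.

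Some genes crossed the ceiling. On the single array 941 genes lay above its ceiling that lay under it on all 3 wild-type arrays, but only 462 of them were 4-fold higher. The other way went 260 genes, of which 168 were 4-fold lower. The ceiling of the single array (4.13) was under the mean wild-type ceiling (4.32), which makes the first kind of crossing easier. Of the 1375 higher genes, 1267 were also 4-fold above both knockout replicates 1 and 2, and of the 827 lower genes 737 were 4-fold below both. Where the higher genes had further probe sets, 960 of 1084 differed in the same direction and none was 4-fold the opposite way. For the lower genes 754 of 786 agreed in direction, and 2 were 4-fold opposite, in Myo5c (4.85 against -2.77) and Synpo2 (2.12 against -4.32), 2 genes singled out after their values were seen.

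**Figure D2:**
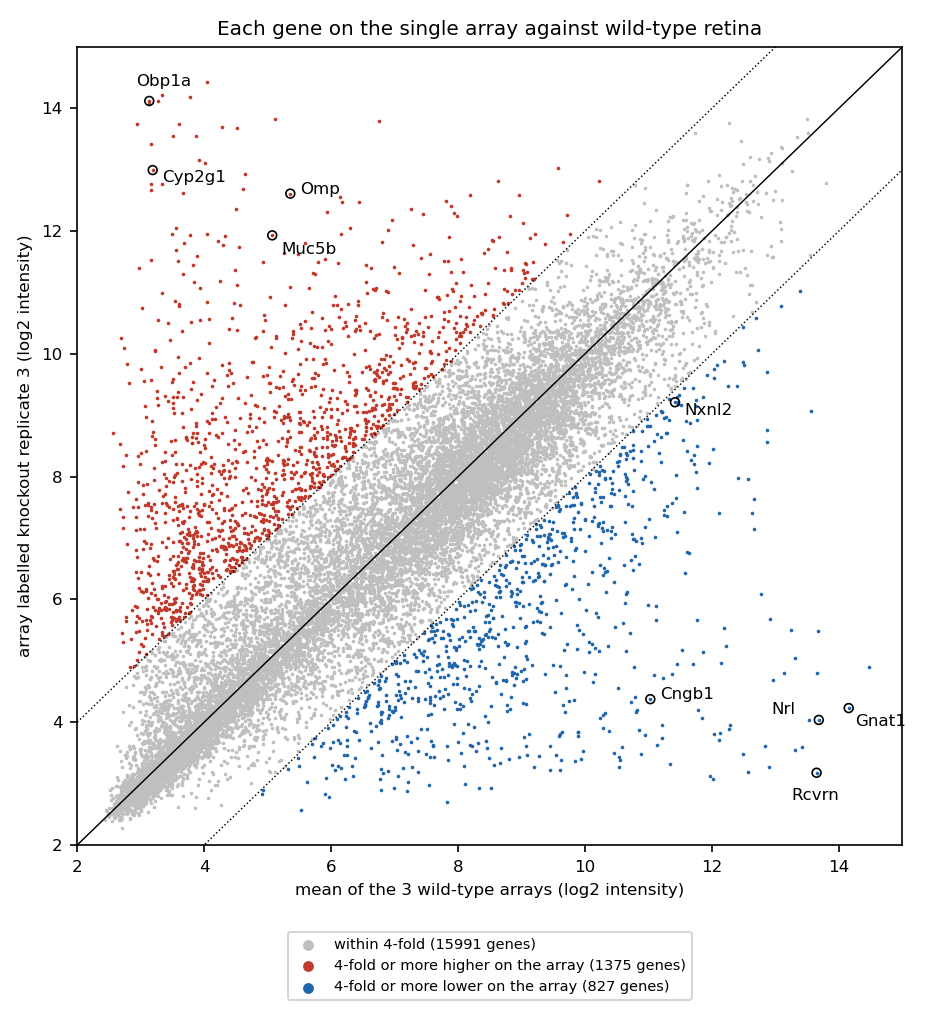
Each of 18193 genes by its wild-type mean (horizontal, log2 intensity, 3 arrays) and its value on the array labelled knockout replicate 3 (vertical, log2 intensity), with dotted lines at 4-fold. In red are 1375 genes 4-fold or more higher, with the nasal markers at upper left, and in blue 827 genes 4-fold or more lower, with Gnat1, Rcvrn and Nrl at lower right.

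Secreted proteins of nasal glands gave the largest list median. Of 14 measured nasal binding and secretory proteins, the marker Obp1a among them, 13 were 4-fold higher and none lower, with a median difference of 9.07. Obp2a, a relative of Obp1a that carries odorants in mucus, read 3.03, 3.39 and 3.58 in wild type and 14.21 on the single array, at least 952-fold higher. Bpifa1, an airway surface protein, read 3.31, 3.11 and 3.40 against 14.12, at least 891-fold higher. Lcn11, another lipocalin, was at least 693-fold higher and Mup5, a major urinary protein, at least 617-fold. Bpifb2 was the exception, at 4.39, 4.11 and 4.47 in wild type and 4.25 on the single array. Among the 25 genes with the largest differences, 24 were under the ceiling on at least 1 wild-type array, so their folds are lower bounds, and Bpifb3 alone was measured on all 4 arrays (422-fold higher).

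Sustentacular and Bowman gland genes followed. Of 16 measured, 13 were 4-fold higher, none was lower, and all 16 lay above every wild-type array, with a median of 5.63. Cyp2g1 was at least 409-fold higher. Cbr2, a carbonyl reductase, read 3.86, 3.96 and 3.79 in wild type and 13.55 on the single array, at least 601-fold higher. Gpx6, a glutathione peroxidase of the olfactory epithelium, read 4.52, 4.51 and 4.51 against 13.69. Aqp5, the water channel of secretory glands, read 4.95, 5.01 and 5.15 against 10.93, which is 59.3-fold higher. In these genes the wild-type arrays lay close together and the single array lay far outside them.

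Enzymes that clear odorants and other foreign chemicals were higher in most cases, 31 of 37 by 4-fold and none lower, with a median of 4.95. Cyp2f2, a cytochrome P450 of airway cells, read 3.18, 3.09 and 3.24 in wild type and 13.42 on the single array, at least 549-fold higher. The sulfotransferase Sult1c1 was 313-fold higher, the alcohol dehydrogenase Adh1 at least 229-fold and the carboxylesterase Ces1d at least 147-fold. Gstp1, a glutathione transferase that the retina also held at a high reading, differed little, at 11.82, 11.79 and 11.93 against 11.71. Cyp1b1 was likewise close to wild type, 0.28 lower in log2 units on the single array (difference -0.28). Over the whole cytochrome P450 family by symbol, 15 of 73 genes were 4-fold higher and none lower, with a median of 0.02, so the difference sat in a minority of that family.

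Mucin and airway secretory genes were 4-fold higher in 16 of 25 cases, with none lower and a median of 3.51. Agr2, a disulfide isomerase that mucus cells need to fold mucins, read 3.57, 3.55 and 3.49 in wild type and 10.86 on the single array, at least 93.5-fold higher. The mucin Muc2 was at least 111-fold higher, Muc16 at least 38.5-fold and Muc5b 116-fold. Foxa1, a regulator of glandular and airway epithelium, was at least 11.9-fold higher. The trefoil factors did not share this, with Tff1 at 8.44, 7.84 and 8.22 in wild type and 8.13 on the single array, and Tff3 0.33 lower (difference -0.33). Scgb1a1, the club-cell secretoglobin of the lower airways, lay under the ceiling on all 4 arrays and was picked out after its values were seen.

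Antimicrobial proteins of mucosal surfaces were 4-fold higher in 15 of 23 cases, with none lower and a median of 4.94. Ltf, the iron-binding lactoferrin of gland fluid and neutrophils, read 4.06, 3.87 and 3.83 in wild type and 13.15 on the single array, at least 457-fold higher. Wfdc18, a small whey-acidic-protein relative, was at least 1110-fold higher, the scavenger receptor Dmbt1 at least 349-fold and the lectin Reg3g at least 315-fold. Lyz1, a lysozyme, was 95.1-fold higher. Defb2, a beta-defensin, read 3.96 on the single array, no higher than its wild-type readings of 4.26, 4.44 and 4.13. Other Lyz1 probe sets differed by 0.34 and 6.48.

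Genes of the epithelial sheet itself were 4-fold higher in 23 of 33 cases, none lower, with a median of 3.94. Epcam, the epithelial cell adhesion molecule, read 3.80, 4.06 and 3.61 in wild type and 11.45 on the single array, at least 141-fold higher. Cdh1 (E-cadherin) was at least 72.5-fold higher, the desmosome protein Dsp at least 75.1-fold, and the simple-epithelium keratin Krt8 41.3-fold. The epithelial splicing factor Esrp1 was 29.5-fold higher. Another Epcam probe set differed by 0.82, and other Dsp probe sets by 0.63 and 5.98. By contrast the tight-junction gene Cldn1 read 4.97, 5.26 and 4.83 against 4.71. The claudins as a family held 9 of 24 genes 4-fold higher (median 0.52), and the annexins 6 of 11 (median 2.08), both with none lower. The keratin family held 7 of 48, with a median of -0.02. In all, 238 symbol families had 10 or more measured genes, and only a few of them are named here.

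Transport of ions and fluid by airway epithelium was mixed. Of 20 genes, 8 were 4-fold higher and 2 lower, with a median of 1.66. Slc5a8, a sodium-coupled monocarboxylate carrier, was at least 37.9-fold higher, the water channel Aqp3 20.9-fold (other probe sets 0.55, 5.90 and 6.16) and the chloride channel Ano1 13.3-fold. Car2, a carbonic anhydrase that Muller glia also make, read 12.56, 12.41 and 12.54 in wild type and 9.82 on the single array. Clca1 was the other lower member, at least 3.58-fold, with another probe set at -0.29. The members of this list thus differed in both directions.

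Olfactory signalling genes came next. Of 20 measured, 13 were 4-fold higher and 1 was 4-fold lower, with a median of 2.66. Stoml3, a stomatin-like protein of olfactory cilia, read 3.95, 3.82 and 4.27 in wild type and 13.11 on the single array, at least 434-fold higher. Gnal, the olfactory G-protein alpha subunit, read 7.05, 7.33 and 7.38 against 12.36, 34.5-fold higher, with other probe sets at 0.05 and 5.46. Adcy3, the adenylyl cyclase of olfactory cilia, was 32.7-fold higher, and the channel subunits Cnga2 and Cnga4 were at least 126-fold and 46.6-fold higher. Genes of the steps from G protein to channel thus read high, and 19 of the 20 genes lay above every wild-type array.

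Cngb1 was the single lower gene of that list. It encodes a channel subunit that rods and olfactory neurons share through different transcripts. Its probe set read 11.01, 10.94 and 11.14 in wild type and 4.37 on the single array, 101-fold lower. Read step by step, the paired genes of the light and odour cascades given here differed in opposite directions, though little for the olfactory exchanger. Among G-protein alpha subunits Gnat1 differed by -9.93 and Gnal by 5.11, and among gamma subunits Gngt1 differed by -9.23 and Gng13, which bipolar cells also use, by 1.65. The channel subunit Cnga1 of rods differed by -8.84 and Cnga2 by 7.63. The rod phosphodiesterase Pde6b differed by -9.49 and the olfactory Pde1c by 2.63. The rod exchanger Slc24a1 differed by -9.38, whereas Slc24a4 of olfactory neurons differed by only 0.18. Gng13, Pde1c and Slc24a4 were chosen for this side-by-side reading after their values were seen.

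Few odorant receptors passed 4-fold. Of 38 measured Olfr genes, 3 were 4-fold higher and none lower, 7.89% against 7.56% over all genes, with a median of 0.17. Olfr749 read 3.47, 3.43 and 3.42 in wild type and 6.39 on the single array, at least 4.21-fold higher. Olfr690 was at least 3.38-fold and Olfr73 at least 2.17-fold higher by the bound. In all, 11 of the 38 (28.9%) lay above the ceiling on the single array and under it on every wild-type array, which held for 5.17% of all genes. Only a gene under the ceiling on every wild-type array can do so, as 29 of the 38 receptors were. Over all genes 941 did so and 2992 stayed under the ceiling on all 4 arrays, so the 2 shares have unlike bases. With dim values raised to the ceiling the list median was -0.14. Without the receptors under the ceiling on all 4 arrays it was 1 in log2. That filter kept those 11 receptors only because the single array read above its ceiling, so it raises the median by construction and nothing is drawn from it. Each receptor is made by a small share of olfactory neurons. Another 18, such as Olfr2 at 3.36, 3.12 and 3.42 against 3.06, read under the ceiling on all 4 arrays, where a low level could not be seen.

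Genes of the olfactory neuron lineage were 4-fold higher in 12 of 24 cases and lower in 1, with a median of 1.89. Ebf2, a transcription factor of olfactory neurons, read 3.58, 3.54 and 3.65 in wild type and 11.52 on the single array, at least 147-fold higher. Ebf4 was 21.8-fold higher and Emx2, another olfactory regulator, at least 6.22-fold. Genes of young neurons were also high, with Sox11 31.5-fold, Bcl11b 20.1-fold and Dcx (doublecortin) 18.6-fold higher. Other Dcx probe sets differed by -0.28, 0.73 and 3.88. Neurod1 was the lower gene, at 12.57, 12.67 and 12.78 in wild type against 7.64; photoreceptors make this factor too. Lhx2, shared by eye field and olfactory neurons, was 4.45-fold higher.

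Basal cell genes of the olfactory epithelium were higher by smaller amounts, with 5 of 14 past 4-fold, none lower and a median of 1.52 (0.61 over every probe set). The keratins Krt5, Krt14 and Krt15 of basal cells were 6.72-fold, at least 9.74-fold and at least 10.8-fold higher. Krt5 read 5.08, 4.94 and 4.91 in wild type and 7.72 on the single array. Other Krt14 probe sets differed by 0.14 and 2.56. Lgr5, which marks dividing basal progenitors, was lower, at 7.98, 7.83 and 8.09 against 6.47. Trp63, the transcription factor of resting basal cells, differed by -0.02 on the chosen probe set and by 3.32 on another, so its probe sets disagreed.

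Microvillar and chemosensory cell genes were 4-fold higher in 6 of 16 cases and lower in none, with a median of 0.22. The higher genes included the regulator Foxi1 (at least 8.50-fold), Ascl3 (10.5-fold), the proton pump subunit Atp6v1b1 (at least 18.8-fold) and the chloride channel Cftr (at least 3.23-fold, though another Cftr probe set differed by -0.11). Ascl3 read 5.63, 5.45 and 5.39 in wild type and 8.88 on the single array. Chat, the acetylcholine enzyme of chemosensory cells and of starburst amacrine cells, read 4.61, 4.65 and 4.65 against 4.02.

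The vomeronasal organ, a separate chemical sense organ, gave no such difference. Of 8 vomeronasal neuron genes 1 was 4-fold higher, Bcl11b, which is also on the olfactory lineage list, and the median was -0.23. Trpc2, the channel of vomeronasal neurons, read 7.43, 7.78 and 7.66 in wild type and 7.18 on the single array. None of 31 vomeronasal receptor genes was 4-fold higher or lower, with a median of -0.08. Of these, 24 read under the ceiling on all 4 arrays.

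Motile cilia genes, which build the beating cilia of airway cells, were 4-fold higher in 22 of 37 cases, with none lower and a median of 2.57. Foxj1, the regulator of ciliated cells, read 4.71, 4.85 and 4.83 in wild type and 7.95 on the single array, 8.90-fold higher (chosen after its values were seen). Pifo was at least 43.1-fold higher, the dynein light chain Dynlrb2 30.6-fold, the axoneme assembly factor Ccdc40 22.9-fold and the radial spoke gene Rsph9 20.0-fold. Of the 37 genes, 35 lay above every wild-type array. By symbol family, again out of 238, 10 of 25 Cfap genes (median 1.14) and 4 of 10 dynein heavy chains (Dnah, median 1.32) were 4-fold higher.

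Primary and sensory cilia, which both rods and olfactory neurons carry, showed no such shift. Of 36 genes of cilium transport, 1 was 4-fold higher and 4 lower, with a median of -0.15. Rpgrip1, a scaffold of the photoreceptor connecting cilium, read 11.39, 11.62 and 11.36 in wild type and 4.94 on the single array, 91.4-fold lower. The kinase Mak and the Bardet-Biedl genes Bbs5 and Bbs7 were 4.86-fold, 5.12-fold and 4.46-fold lower, with another Bbs7 probe set at -0.26. Rp2 was the higher one, 8.23-fold, with other probe sets from 1.24 to 2.97.

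Connective tissue stood high. Of 23 fibroblast and matrix genes 18 were 4-fold higher, none lower, and all 23 lay above every wild-type array, with a median of 2.76. Col1a1, a chain of type I collagen, read 4.35, 4.16 and 4.15 in wild type and 11.84 on the single array, at least 177-fold higher. Col3a1 was at least 116-fold higher and Dcn (decorin) 83.1-fold, although a second Dcn probe set differed by 0.48. Wild-type replicate 2 read higher than the other wild-type arrays for Dcn, at 6.83 against 5.67 and 5.29, still far under 12.31 on the single array.

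Bone and cartilage genes stood high in part. Of 11 bone genes 6 were 4-fold higher, none was 4-fold lower, and the median was 4.55, although 4 of the 11 lay below every wild-type array. Dmp1, a matrix protein of osteocytes, read 2.83, 2.66 and 2.72 in wild type and 10.09 on the single array, at least 54.7-fold higher. Ibsp (bone sialoprotein) was at least 45.6-fold higher, the collagenase Mmp13 at least 61.1-fold, and the osteoclast genes Acp5 and Ctsk at least 73.7-fold and 25.7-fold. Of 17 cartilage genes 6 were higher and none lower, with a median of 1.35, or 0.48 with dim values raised to the ceiling. Col11a1 was at least 23.9-fold higher and Chad at least 8.81-fold. Col9a1, which the eye also makes, was 3.24-fold lower. Col2a1, the main cartilage collagen, read 8.04, 8.23 and 8.25 against 8.17 and was picked out after its values were seen.

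Muscle of the vessel wall differed from muscle of the body. Of 13 smooth muscle and pericyte genes 8 were 4-fold higher, none lower, with a median of 2.48, led by Acta2 (27.4-fold) and Tagln (18.6-fold). Other Acta2 probe sets differed by 0.23 and 0.28. Of 19 skeletal muscle genes none was higher and 2 were lower, with a median of -0.27. The fast-muscle genes Acta1 and Ckm read 5.79 and 5.15 on the single array, under every wild-type array. Pygm and Pvalb, the 2 lower ones, differed by -2.70 and -2.67. Vessel genes had a median of 0.92, with 3 of 18 higher and 1 lower. The adhesive protein Vwf was at least 6.08-fold higher, whereas Kdr, the VEGF receptor of vessels and some retinal neurons, was 4.99-fold lower. Genes of barrier-type endothelium, as in retina and brain, had a median of 0.11, with none of 12 higher and 1 lower.

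Glia of the olfactory nerve gave a partial pattern. Of 15 ensheathing and Schwann cell genes 5 were 4-fold higher and none lower, with a median of 1.03, or 0.85 with dim values raised to the ceiling. Apod was at least 198-fold higher on the chosen probe set and differed by 0.04 on another. Fabp7, a fatty-acid binder of ensheathing glia, read 5.87, 5.08 and 5.49 in wild type and 11.62 on the single array, 70.7-fold higher. Erbb3 was at least 41.8-fold higher, with another probe set at -0.39, and S100b 9.53-fold. Ngfr and Frzb lay below wild type, 2.24-fold and 2.03-fold, with another Frzb probe set at -2.19.

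White blood cell genes differed by lineage. All 16 neutrophil and myeloid precursor genes lay above every wild-type array, 10 of them by 4-fold, with a median of 2.24. Ltf, Lcn2, S100a8 and S100a9 of this list are also on the mucosal antimicrobial list, so the 2 lists are not separate readings. Camp (cathelicidin), a granule protein, read 4.06, 4.40 and 4.01 in wild type and 9.57 on the single array, at least 38.2-fold higher. S100a8 and S100a9 were at least 102-fold and 90.3-fold higher. Ngp, of young neutrophils, was at least 35.3-fold and Mpo (myeloperoxidase) at least 4.80-fold higher. Erythroid genes had a median of 0.46 and were 4-fold higher in 2 of 9 cases, Alas2 (at least 13.4-fold) and Slc4a1 (at least 6.88-fold, with other probe sets at 0.00 and 4.43), while the globin gene Hba-a1 lay under the ceiling throughout.

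Lymphocyte genes differed by lineage. Of 12 B and plasma cell genes 2 were 4-fold higher, with a median of 0.85, and Igha, the heavy chain of mucosal antibody, read 6.06, 6.26 and 5.82 in wild type and 8.17 on the single array. The other Igha probe sets differed by more, reading 8.98 and 9.33 on the single array and at most 5.01 in wild type, and 1 of the further Ighm probe sets by 2.96 against 1.92 on the chosen one. Jchain, which joins those antibodies, was 2.36-fold lower on its probe set. Of 11 T cell genes none was higher and 1 was lower, Thy1 (6.25-fold), which ganglion cells also make, and the median was -0.04. Cd3e read 5.71, 5.66 and 5.75 against 5.83. Of 9 mast cell genes (median 0.77) Hdc, which makes histamine, was the 1 past 4-fold, 9.98-fold higher.

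Macrophage genes had a median of 1.68, with 5 of 19 4-fold higher and 1 lower, and 17 of 19 above every wild-type array. Lyz2, the macrophage and neutrophil lysozyme, read 5.64, 5.67 and 5.62 in wild type and 11.08 on the single array, 43.2-fold higher. Mrc1, the mannose receptor, was at least 4.37-fold higher, and Lyve1 at least 10.5-fold lower (another probe set -1.74). Microglia genes, which mark the resident macrophages of retina and brain, had a median of 0.16, with 3 of 10 4-fold higher and 1 lower. Among them P2ry12 was at least 2.96-fold lower, whereas Tmem119, which bone cells also make, was 9.60-fold higher.

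Immune response genes were moderately higher. Antigen presentation had a median of 1.56 (0.99 over every probe set), with 5 of 15 4-fold higher and none lower, and Cd74, the invariant chain of class II molecules, read 5.55, 5.57 and 5.51 in wild type and 9.35 on the single array. Complement and acute-phase genes had a median of 1.45 (0.73 over every probe set, 5 of 16 higher), with the inhibitor Serping1 26.5-fold higher. Interferon-response genes had a median of 1.25 (6 of 16 higher), led by Ifitm1 (at least 70.6-fold) and Ifitm3 (17.8-fold), while Irf7 read below wild type by 1.42-fold. Chemokines and their receptors had a median of 0.12, with 5 of 27 higher. Ccl28 and Cxcl17, chemokines of mucosal epithelium, were 7.63-fold and 11.9-fold higher, although other Ccl28 probe sets differed by 0.23 and 0.30.

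Rod genes read far lower almost as a block. Of 20 measured phototransduction genes of rods 19 were 4-fold lower, against 4.55% of all genes, and all 20 lay below every wild-type array, with a median of -8.33. Of the list, 10 genes lay under the ceiling on the single array. Sag, the rod arrestin, read 14.47, 14.45 and 14.51 in wild type and 4.89 on the single array, 769-fold lower. Pde6b, the catalytic subunit of rod phosphodiesterase, read 13.49, 13.58 and 13.53 against 4.04, at least 677-fold lower. Gnb1, a beta subunit that many cells use, was the 1 member inside 4-fold on its chosen probe set, at 2.04-fold lower, but its other bright probe set differed by -2.11.

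Outer segment genes were 4-fold lower in all 15 cases, with a median of -7.19. Rbp3, the retinoid-binding protein of the matrix between photoreceptors, read 13.25, 13.18 and 13.52 in wild type and 3.55 on the single array, at least 581-fold lower. Prph2, which shapes the disc rim, was at least 437-fold lower, its partner Rom1 216-fold and the microtubule protein Rp1 at least 236-fold. Another Rp1 probe set differed by -1.92 only.

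Cone genes were 4-fold lower in 8 of 12 cases, with a median of -4.33. Opn1sw, the short-wave opsin, read 12.39, 12.04 and 12.22 in wild type and 5.25 on the single array, 125-fold lower. Cone transducin Gnat2 was 98.6-fold lower, cone arrestin Arr3 at least 76.4-fold and the middle-wave opsin Opn1mw at least 54.3-fold. Slc24a2 was the only member above wild type, 3.13-fold.

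The regulators of photoreceptor and eye identity were 4-fold lower in 11 of 20 cases and higher in 1, with a median of -3.02. Nrl, the factor that makes rods, read 13.68, 13.69 and 13.69 in wild type and 4.04 on the single array, at least 752-fold lower. Crx, which drives photoreceptor genes, read 12.31, 12.25 and 12.31 against 3.95, at least 285-fold lower. Rorb and Esrrb were 59.1-fold and at least 85.0-fold lower, with other Esrrb probe sets at -1.64 and -3.34. Rax and Pax6, factors of the eye field, were 23.3-fold and 8.20-fold lower, and both were chosen after their values were seen. Of 3 members above every wild-type array, Lhx2 was 4.45-fold and Nr2e1 3.11-fold higher.

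Because the lowest genes included Crx and its known targets, promoters were searched for the CRX core, TAATCC. Promoters came from RefSeq (assembly GRCm38.p6), 300 bases each from 250 before to 50 after a start, and 14367 of the measured genes matched 18006 of them. Both strands were searched. The promoters of 3 genes of the 25 lowest are shown, as the 120 bases just before the start. The core is in capitals on the opposite strand (GGATTA). These 3 were picked because they hold the core in that stretch, so they do not show how common it is among the lowest genes. The 3 promoters are Sag at chr1:87803560-87803679, Rbp3 at chr14:33953883-33954002 and Gngt1 at chr6:3993888-3994007, all on the plus strand.
Sag: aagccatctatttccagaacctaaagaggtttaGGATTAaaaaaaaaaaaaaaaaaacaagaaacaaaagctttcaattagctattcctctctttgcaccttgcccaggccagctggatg
Rbp3: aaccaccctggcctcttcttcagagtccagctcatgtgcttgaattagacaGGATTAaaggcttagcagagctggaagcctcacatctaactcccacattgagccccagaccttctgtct
Gngt1: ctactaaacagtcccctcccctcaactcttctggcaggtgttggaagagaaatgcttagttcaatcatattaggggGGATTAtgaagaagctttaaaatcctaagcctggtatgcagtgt
The core begins 87 bases before the start in Sag, 69 in Rbp3 and 44 in Gngt1.

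Over the lists of rods, cones and outer segments, 14 of 39 promoters held the CRX core (35.9%), against 7.06% of all 32851 promoters of that length. The share was 10.8% among the 4-fold lower genes, 29.5% among genes 32-fold or more lower (33 of 112 promoters, a threshold chosen after the data were seen), 6.10% among all measured genes and 5.31% among the 4-fold higher genes. The NRL site TGCTGAC was in 15.2% of the promoters of the 32-fold lower genes, but in 5.86% of those of the 4-fold lower genes. It was in 5.13% (2 of 39) of the rod, cone and outer segment lists, against 4.2% of measured genes and 4.67% of all promoters. The RFX site GTTGCCA, a letter pattern of cilia genes, was in 20.6% of the motile cilia promoters (7 of 34), 4.2% of measured genes and 4.38% of all. Among the higher genes its share was 5.39% at 4-fold and 3.92% at 32-fold. The EBF motif was in 1.53% of the promoters of 4-fold higher genes, 1.31% of 32-fold higher, 1.01% of 4-fold lower, 1.06% of measured genes and 0.904% of all, and in 0 of 21 promoters of the olfactory transduction list. The E-box CACGTG, taken for comparison, was in 7.50% of the higher and 6.88% of the lower, against 8.74% of measured genes and 7.15% of all promoters. A match is a letter pattern and not a bound site.

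**Figure D3:**
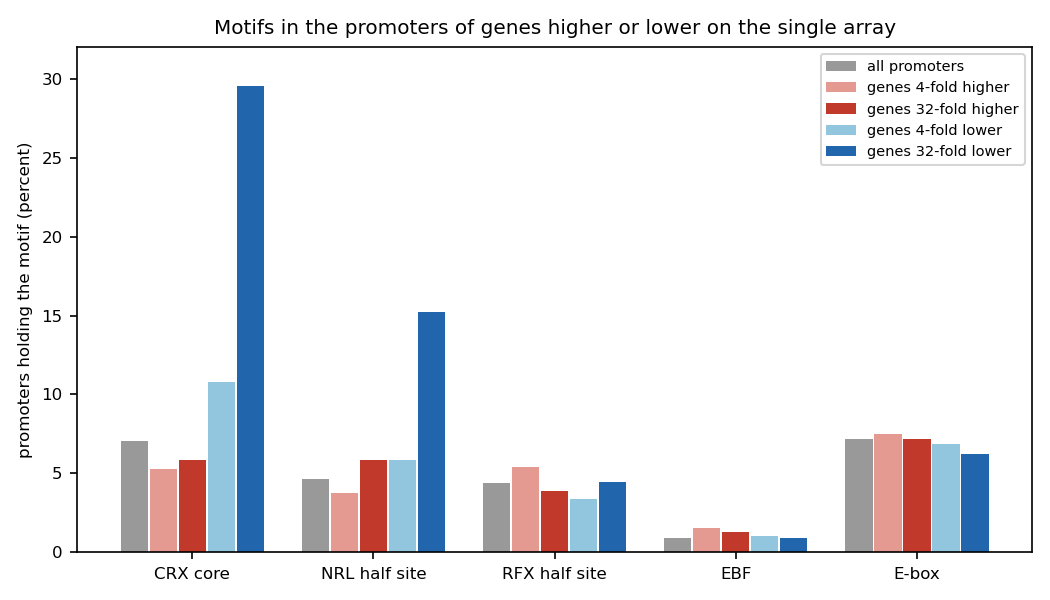
Percent of promoters (vertical) that hold each of 5 motifs (horizontal) on either strand, for all 32851 promoters and for those of genes 4-fold or 32-fold higher or lower on the array labelled knockout replicate 3. The CRX core stands at 29.5% in genes 32-fold lower against 7.06% of all promoters, and the E-box lies between 6.25% and 7.50% in every set shown. Measured genes as a whole, at 8.74% for the E-box, are not drawn.

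Synapse genes of photoreceptors were 4-fold lower in 14 of 22 cases, none higher, with a median of -2.83. Lrit1, a protein of the photoreceptor synapse, was at least 108-fold lower, the complexins Cplx4 and Cplx3 105-fold and 99.7-fold, and the calcium channel Cacna1f of the ribbon 82.9-fold. Cacna1f read 10.70, 10.80 and 10.86 in wild type and 4.41 on the single array. Bsn (bassoon), a scaffold of many synapses picked out after its values were seen, read 8.52, 8.49 and 8.93 against 8.57.

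Inner retinal neurons were also lower. Bipolar cell genes were 4-fold lower in 9 of 18 cases (median -1.69). Pcp2, a bipolar cell protein, read 11.90, 11.89 and 11.77 in wild type and 4.06 on the single array, at least 211-fold lower, and Cabp5 was 71.5-fold lower. Gng13 was the bipolar gene above wild type. Amacrine cell genes were 4-fold lower in 11 of 22 cases (median -1.89), with Gjd2, a gap-junction protein, 41.6-fold lower and the inhibitory vesicle transporter Slc32a1 18.2-fold, although 3 other Slc32a1 probe sets differed by -0.13 to 0.09. Horizontal cell genes were lower in 4 of 9 cases (median -1.97).

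Ganglion cell genes divided. Of 19, 8 were 4-fold lower and 2 higher, with a median of -0.58. The neurofilaments Nefl, Nefm and Nefh were 82.5-fold, 33.1-fold and 17.6-fold lower, and Nefl read 11.44, 11.51 and 11.66 in wild type against 5.17. The higher genes were Ebf1 (11.8-fold) and Ebf3 (8.55-fold), factors that olfactory neurons also make. Tubb3, a tubulin of neurons in general, read 7.77, 8.01 and 8.18 against 9.61 and was picked out after its values were seen.

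Muller glia, the support cells that span the retina, gave 7 of 21 genes 4-fold lower, none higher, and a median of -0.58. Rlbp1, the retinaldehyde-binding protein, read 11.62, 11.63 and 11.47 in wild type and 6.44 on the single array, 35.2-fold lower. Car14 was 21.7-fold and Dkk3 13.9-fold lower. Aqp4, the water channel of Muller cells and also of nasal epithelium, was 3.20-fold higher and Sox9 2.55-fold higher.

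Visual cycle genes were 4-fold lower in 8 of 14 cases, with a median of -2.50. Rdh12, a photoreceptor retinol dehydrogenase, was at least 257-fold lower. Pigment epithelium genes were lower in 8 of 14 cases (median -2.37). Rpe65, the isomerase of that layer, read 10.15, 10.82 and 9.90 in wild type and 4.12 on the single array, at least 71.4-fold lower. Rbp4, a retinol carrier of blood and glands, was the visual cycle gene 4-fold higher. The wild-type arrays themselves differed for this layer, with replicate 2 highest for Rpe65, Dct and Tyrp1.

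Lens genes showed the same unevenness more strongly. Of 17, 12 were 4-fold lower and all 17 lay below every wild-type array, with a median of -3.60, or -2.72 without wild-type replicate 2. Cryaa, the alpha-crystallin of the lens, read 9.83, 12.47 and 9.86 in wild type and 4.33 on the single array. Wild-type replicate 2 stood above the other wild-type arrays for the list as a whole by 2.75. The same measure was -1.28 and -1.51 for replicates 1 and 3 (median difference of an array from the mean of the other wild-type arrays). Knockout replicates 1 and 2 read -1.06 and -0.71 for the list on another scale, against the mean of all wild-type arrays with replicate 2 included. Whether lens tissue came along in different amounts was not tested.

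Receptors and channels of retinal neurons were lower. Of 24 glutamate, GABA and glycine receptor genes 13 were 4-fold lower and none higher (median -2.34). The glycine receptor Glra3 was at least 17.9-fold lower and the GABA receptor Gabrr2 of bipolar cells 23.8-fold. Another Glra3 probe set differed by -0.27. Of 24 potassium and HCN channel genes 9 were lower and 2 higher (median -1.04, or -0.94 without wild-type replicate 3). Kcnj14, an inward rectifier, read 11.62, 11.88 and 11.85 in wild type and 4.19 on the single array, 193-fold lower, and Kcnv2, a modifier subunit of photoreceptors, was at least 33.7-fold lower. Kcnk2 was 10.2-fold higher.

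The list of rod-derived cone viability factors and their partners holds 6 measured genes, Nxnl2 itself among them, with a median of -2.21. Of the 5 others, Nxnl1, Slc16a1 and Slc16a3 were 4-fold lower. Nxnl1, which encodes the rod-derived cone viability factor, read 8.45, 8.49 and 8.58 in wild type and 5.52 on the single array, 7.90-fold lower, while its other probe set differed by -1.72. The lactate carrier Slc16a1 was 15.5-fold lower, with another probe set at -0.90. Bsg (basigin) was close to wild type at 1.22-fold lower. Slc2a1, the glucose transporter that Bsg is known to bind, was 1.47-fold lower on the chosen probe set. Its other probe sets differed by more, at -1.13 and -1.41.

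**Figure D4:**
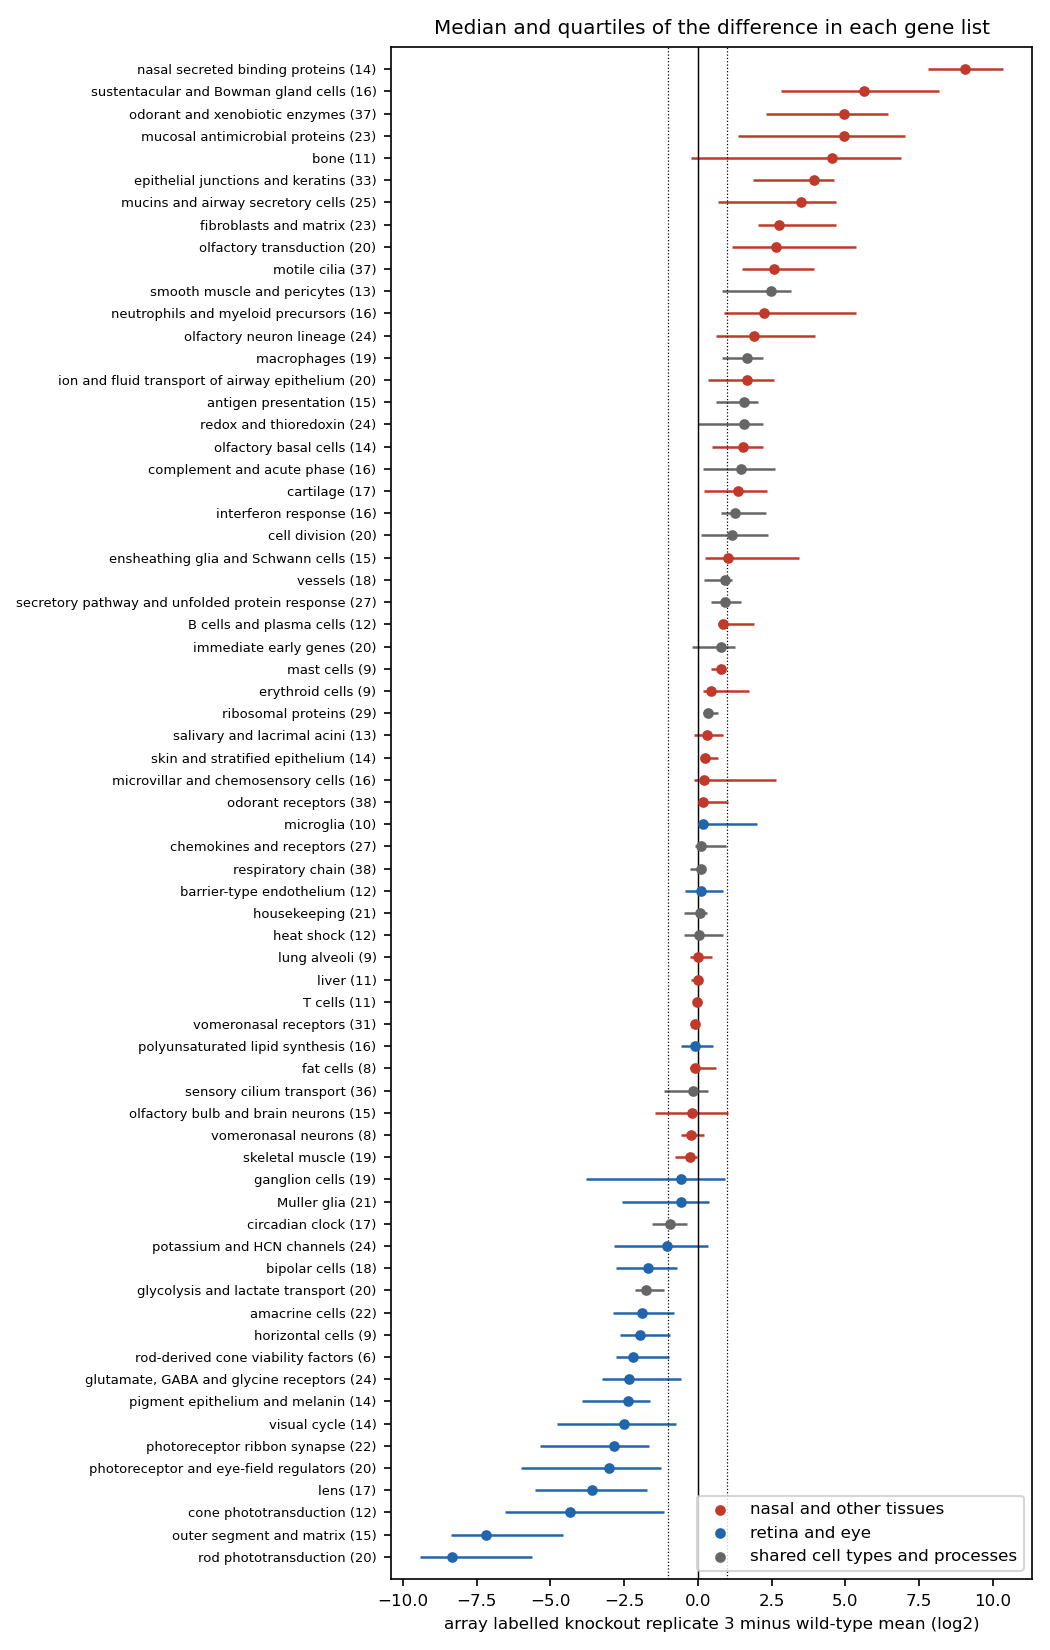
Median (point) and quartiles (line) of the difference between the array labelled knockout replicate 3 and the wild-type mean, in log2 units (horizontal), for 68 gene lists (vertical, measured genes in brackets), in red for nose and other tissues, blue for retina and eye and grey for shared cell types and processes, with dotted lines at 2-fold. Nasal secreted proteins lie at the top (9.07) and rod phototransduction at the bottom (-8.33). Of 19 retina lists 14 lie at or under -1 and none at or over 1, and of 31 lists of nose and other tissues 16 lie at or over 1 and none at or under -1.

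Metabolism differed by pathway. Glycolysis and lactate transport, on which the retina depends, had a median of -1.74, with 6 of 20 genes 4-fold lower and none higher. The neuronal enolase Eno2 read 11.58, 11.72 and 12.01 in wild type and 8.92 on the single array, 7.20-fold lower, and hexokinase Hk2 was 5.44-fold lower. The respiratory chain did not share this, with a median of 0.11 over 38 genes. Cox7a1, a muscle-type subunit, was its 1 gene 4-fold higher (at least 6.19-fold). Enzymes of long polyunsaturated lipids had a median of -0.09, yet Elovl4 and Elovl2, which lengthen the fatty acids of outer segments, were 17.6-fold and 7.70-fold lower and the desaturase Scd1 was 15.7-fold higher, with another Scd1 probe set at 0.42.

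Redox genes had a median of 1.55, with 8 of 24 4-fold higher and none lower, but the median was 0.22 over every probe set of these genes. Apart from Gpx6 the highest was Gpx3, at 6.62, 7.56 and 6.69 in wild type and 12.18 on the single array, 37.3-fold higher. Txnip, an inhibitor of thioredoxin, was 24.4-fold higher. Txnrd1 was 4.53-fold higher on the chosen probe set, but 2 others differed by 0.00 and 0.05. Genes of the secretory pathway and the unfolded protein response lay a little higher, with a median of 0.92 and 23 of 27 above every wild-type array. Sec61a1, a subunit of the translocation pore, read 9.61, 9.65 and 9.60 against 11.51.

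Cell division genes had a median of 1.17, with 6 of 20 4-fold higher and none lower, but the median was 0.62 over every probe set of these genes. Mki67, a marker of cycling cells, read 3.17, 3.36 and 2.95 in wild type and 7.45 on the single array, at least 8.77-fold higher. Rrm2 was at least 9.35-fold (other probe sets 1.37 and 2.31) and Top2a at least 6.84-fold higher, though other Top2a probe sets differed by 0.05 and 1.96. Ccna2 was 2.45-fold lower. Clock genes lay slightly lower, with a median of -0.95 and 14 of 17 under every wild-type array, and Arntl 6.34-fold lower (another probe set -1.19). Immediate early genes had a median of 0.78, but Egr1 itself ranged from 9.45 to 13.58 over the wild-type arrays.

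General genes gave the scale. Ribosomal protein genes had a median of 0.34, with none of 29 past 4-fold, and housekeeping genes 0.08, with 2 of 21 4-fold higher. Heat-shock genes had a median of 0.03 but went both ways, from -1.92 (Hspa1a) to 3.14 (Hspb1), with 3 of 12 4-fold higher. Within the housekeeping list, Gusb differed by 3.86 and Hprt by -1.50, so not every one of these genes read alike in both samples. Genes of other tissues were mostly near wild type. The medians were 0.24 for skin and stratified epithelium, 0.02 for lung alveoli, -0.01 for liver and -0.09 for fat. Alb (albumin) lay under the ceiling on all 4 arrays. Salivary and lacrimal genes had a median of 0.32, but Pip, a secreted gland protein, was at least 87.9-fold higher (another probe set 1.80) and the amylase Amy1 14.9-fold lower. Genes of the olfactory bulb and brain had a median of -0.20, with 2 of 15 higher and 3 lower.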

How the data were processed

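RNA of 6 retina-labelled samples was measured on one-colour Affymetrix arrays. The deposited log2 intensities come from RMA, as named in the submitters' processing notes. RMA puts all arrays on one distribution, so a difference in total RNA cannot be seen. Software version: not given in the sources used here, nor is a chip definition. Array medians were 5.77 to 5.80.

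Of 45101 probe sets, 64 controls were left out, and 34945 of the rest name 1 gene, 932 several and 9160 none in the platform annotation. Each of 18193 genes took its brightest probe set by the mean of the 4 arrays; 18031 matched RefSeq by Entrez identifier. Differences of 2 in log2 (4-fold) were counted, and list medians of 1 (2-fold). With 1 array on a side no test was run. Python 3.11.15, pandas 2.3.3, numpy 2.4.6 and matplotlib 3.10.9 were used, and the counting was tested on simulated data. Other thresholds, probe-set rules, scalings, comparators and the handling of dim genes were tried, and each wild-type array was left out.

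The members and the 68 lists (1403 names, 1271 measured, some genes on several lists) were chosen with earlier results of these data known. Genes are named by a rule, which takes Nxnl2, the 4 markers, the 25 largest differences in each direction, and up to 8 members per list plus up to 2 of opposite sign; others are said in the text to be chosen after their values were seen. Of the 579 genes the rule takes, 253 have several probe sets. Of 448 further probe sets, 98 passed 4-fold where the chosen one did not or the reverse. In no case did both pass 2-fold in opposite directions. Some passed 2-fold against a chosen probe set of the other sign that lay within 2-fold, as in Grhl2 (3.11 against -0.12), Trp63 (3.32 against -0.02), Iqca (2.50 against -0.05) and Reep5 (1.64 against -0.96).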

Additional observations from a re-analysis of the deposited data

Results flagged for a closer look

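Probe sets outside the gene comparison also stood apart on the array labelled knockout replicate 3. Of 9160 probe sets with no gene name, 281 were 4-fold or more higher than the wild-type mean and 251 lower, while no wild-type array had any that much higher or lower than the others. Of 932 probe sets that name several genes, 59 were 4-fold higher and 12 lower, while wild-type arrays had at most 1. These probe sets were not named or described further.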

How the results depend on the processing

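The value of a single array has no replicate check. At 2-fold the counts were 2907 genes higher and 2090 lower, at 8-fold 666 and 391, and over every probe set in place of genes 2085 and 1404. Under the other probe-set rules, scalings, dim-gene rules and comparators the counts stayed within 1.5 times. With each wild-type array left out in turn, 1381 to 1389 genes were higher and 811 to 843 lower, 23 lists had a median 2-fold higher in each case and 14 to 16 a median 2-fold lower, and Nxnl2 differed by -2.23 to -2.19. Without wild-type replicate 3 the potassium and HCN channel list had a median of -0.94, and without replicate 2 the clock list also reached 2-fold lower. All 38 lists past 2-fold kept their direction under 16 alternatives, but 8 dropped under 2-fold in at least 1. These were olfactory basal cells (to 0.61), antigen presentation (0.99), complement (0.73), cartilage (0.48), ensheathing glia (0.85), potassium and HCN channels (-0.87), redox (0.22) and cell division (0.62). The CRX core was in 8.81% of the promoters of lower genes at 2-fold and 14.7% at 8-fold, the NRL site in 7.97% of the lower at 8-fold, and the E-box in 5.98% of the higher at 8-fold. No paired analysis was possible because 1 array stands on one side and no test was run.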
